A study of Mus musculus with 4 samples.

Results

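Growth factor receptor tyrosine kinases are cell surface proteins whose binding of a ligand outside the cell switches on a kinase inside it. The 10 receptors described here were a list of genes: the fibroblast growth factor (FGF) receptors Fgfr1, Fgfr2 and Fgfr3, the neuregulin and EGF-family receptors Erbb2, Erbb3 and Erbb4, the insulin-like growth factor (IGF) receptor Igf1r, the insulin receptor Insr, the brain-derived neurotrophic factor receptor Ntrk2 and the hepatocyte growth factor receptor Met. They were found by symbol among 52636 Ensembl genes, and all 10 were present once. RNA was measured by bulk sequencing in cells of the corpus callosum, a white matter tract of the forebrain, from Mertk-knockout mice fed 0.2% cuprizone for 4 weeks. Cuprizone is a copper chelator that kills oligodendrocytes, and Mertk encodes a receptor by which phagocytes take up dying cells. The 4 libraries were 2 of AnnexinV-positive cells, which expose phosphatidylserine and are called dying by the submitters, and 2 of AnnexinV-negative cells, called living. All 4 carried the knockout and the cuprizone diet, and no wild-type or untreated library was analysed here. Mertk itself was read at an RPKM of 62.6 and 53.6 in AnnexinV-positive and of 18.8 and 29.9 in AnnexinV-negative libraries; a whole-gene level cannot show which exons remain, so this level neither bears out nor refutes the knockout label. The labels name no strain, age or knockout allele. They also leave unsaid whether replicates came from separate animals, and p-values then cover only the spread between the libraries at hand, which may be technical.

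In white matter these receptors are known to divide by cell type and stage. FGF receptors guide oligodendrocyte precursors and myelin thickness, with Fgfr2 as the main form of myelinating oligodendrocytes and Fgfr3 strong in astrocytes. Erbb3 binds neuregulins but has little kinase activity of its own and signals with Erbb2 as partner, while Igf1r carries survival signals to oligodendrocytes and Ntrk2 is abundant in astrocytes.

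In units of 1000 reads, the libraries held about 67456 and 60142 in genes for AnnexinV-positive replicates 1 and 2, and about 50533 and 43250 for AnnexinV-negative replicates 1 and 2. Levels are called RPKM here, a read number divided by gene length and, as read from the values, scaled by a size factor per library. Levels of different genes in a library can thus be compared. Depth was not simply divided out between libraries: values summed over all genes were 200348 and 217768 in AnnexinV-positive replicates 1 and 2. They were 122944 and 120680 in AnnexinV-negative replicates 1 and 2. Known markers moved between the groups. All 15 markers of mature oligodendrocytes were lower in AnnexinV-positive libraries, and their summed RPKM was 34.2 to 46.1 against 515 to 947. Of 11 tested astrocyte markers 8 were lower (summed RPKM of all 12 listed, 69.2 to 89.3 against 116 to 147), and of 9 tested endothelial markers 8 were lower (10.8 to 13.5 against 50.1 to 51.5 over 10 listed). The 14 homeostatic microglia markers, from the brain's resident macrophages, were all higher (6070 to 6200 against 2362 to 2875) on the deposited scale, whereas 1 of the 14 was higher on the TPM scale, which makes library sums equal. Of 8 tested markers of oligodendrocyte precursors 7 were lower (summed RPKM of 12 listed, 18.0 to 20.7 against 130 to 163). Of 3 tested neuron markers 2 were lower (2.36 to 2.44 against 11.7 to 17.5 over 12 listed). No marker of these 6 lists was at 0 in any library. Most of the AnnexinV-negative neuron sum was Tubb3 (8.97 and 5.82) and Stmn2 (3.76 and 1.57), the 2 called lower. Of the untested neuron markers, Rbfox3 was higher in both AnnexinV-positive libraries (0.150 and 0.118 against 0.0897 and 0.0566). Slc17a7, Camk2a and Nrgn overlapped, and the other untested ones were lower in both AnnexinV-positive libraries. In the precursor list, Olig1, Olig2, Sox10 and Bcas1 had the largest falls (log2 fold changes -4.54, -4.81, -5.14 and -4.19). They also had the highest AnnexinV-negative levels and made up most of that sum. Cspg4 overlapped between the groups (0.55, limma adjusted p 0.237), and Pdgfra, Tnr, Matn4 and Vcan were not tested. With all genes above 0 tested, log2 fold changes of those untested markers ran from -2.12 (Pdgfra) to -0.51 (Vcan). Of the lower markers, 11 of mature oligodendrocytes, 5 endothelial, 3 precursor and 2 neuron markers reached an RPKM of 1 only in AnnexinV-negative libraries. The test required this level in at least 2 libraries, so a difference was built into their selection. Over all genes tested 9.26% were lower and 30.8% higher on the deposited scale, and 1.03% were higher on the TPM scale. The sum over markers of the choroid plexus and ependyma followed replicate number in place of group, with an RPKM of 414 and 387 in the replicates numbered 1 and of 61.6 and 22.7 in those numbered 2. Most of it was Ttr (383 and 360 in replicates numbered 1, 54.2 and 18.4 in those numbered 2). Tmem212 did not follow replicate number (0.367 and 0.519 in AnnexinV-positive, 0.558 and 0.144 in AnnexinV-negative replicates 1 and 2).

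Receptor RNA was scarce in AnnexinV-positive cells and of another makeup. Summed over the 10 receptors, RPKM was 6.13 and 7.29 in AnnexinV-positive replicates 1 and 2 and 28.5 and 26.8 in AnnexinV-negative replicates 1 and 2. In 9 of the 10 genes both AnnexinV-positive libraries lay below both AnnexinV-negative ones, and Insr was the exception, with overlapping groups. Over the 44826 genes above 0 in at least 1 library, 30.7% were placed as those 9 were. In AnnexinV-negative libraries Fgfr2 made up 32.8% and 33.0% of the summed level and Erbb3 19.2% and 18.5%, whereas in AnnexinV-positive libraries Fgfr2 was 7.80% and 7.60% and Erbb3 1.12% and 0.450%. Insr made up 4.70% and 5.78% of the AnnexinV-negative sum and 24.8% and 23.3% of the AnnexinV-positive sum. In a bulk sample, fewer cells of a type and less RNA per cell cannot be told apart, and the marker lists above moved with these values; their part in the receptor differences was not tested.

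**Figure D1:**
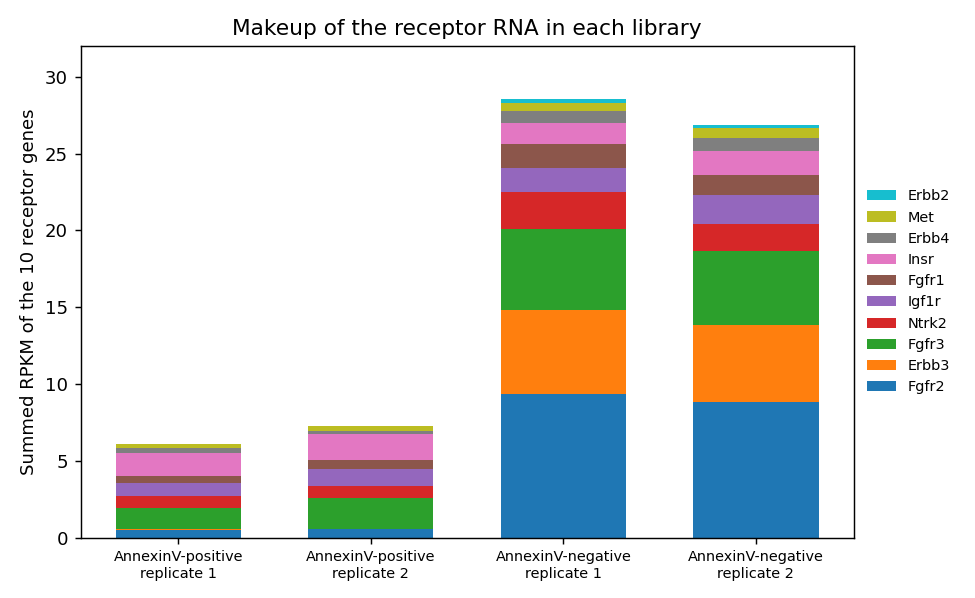
Stacked bars give the RPKM of each of the 10 receptor genes in each library (y axis, summed RPKM; x axis, the 4 libraries). The AnnexinV-positive bars reach 6.13 and 7.29 and the AnnexinV-negative bars 28.5 and 26.8, and Fgfr2 and Erbb3, the bottom segments of the AnnexinV-negative bars, are nearly absent on the left.

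Of the 10 receptors, 7 reached an RPKM of 1 in at least 2 libraries and were tested together with the other genes that did so, 10927 in all (limma on log2(RPKM + 0.1)). Erbb2, Erbb4 and Met did not reach it. Of these 7, 6 were lower in AnnexinV-positive cells with a Benjamini-Hochberg adjusted p under 0.05, and 0 of 7 were higher in limma, also at an unadjusted p under 0.05; over all genes tested 9.26% were lower and 30.8% higher. Fgfr1, Fgfr2, Erbb3 and Ntrk2 (4 of the 7) reached the minimum only through the AnnexinV-negative libraries, so a difference was built into their selection. Fgfr3 and Insr reached it in all 4 libraries and Igf1r in 3. When every gene above 0 in at least 1 library was tested, in which 5.55% of genes were lower, 6 of 10 receptors were lower (Fgfr1, Fgfr2, Fgfr3, Erbb3, Erbb4 and Ntrk2) and Igf1r no longer passed. Insr was the tested receptor that did not pass, and the 95% interval of its log2 fold change ran from -0.40 to 0.70.

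**Figure D2:**
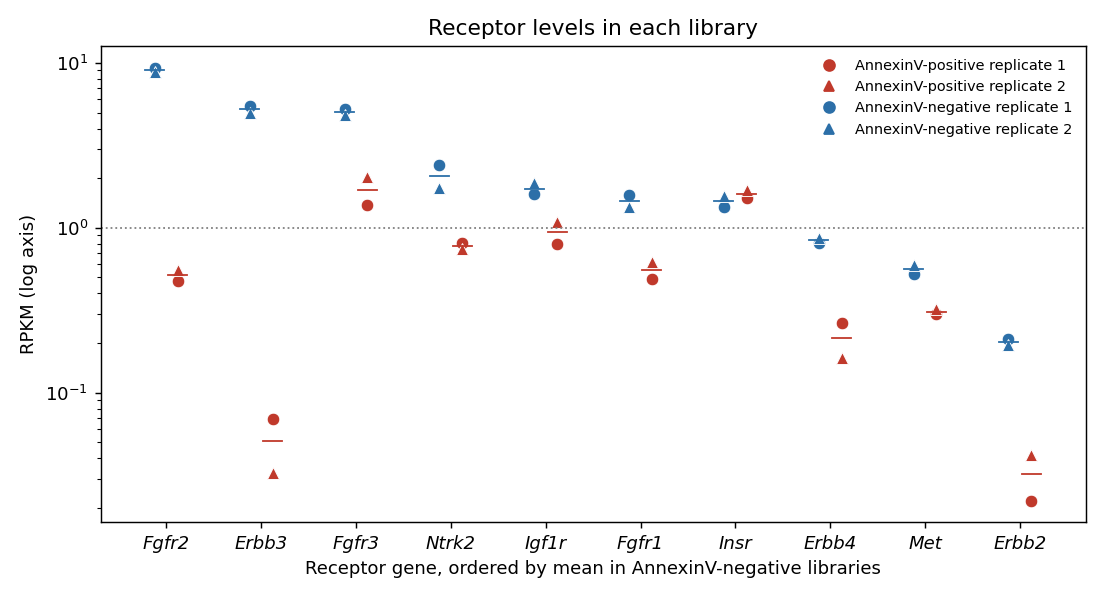
Points give the RPKM (log axis) of each receptor gene in each of the 4 libraries, short lines the group means (n = 2), and the dotted line the RPKM minimum of 1. Red and blue points are apart for 9 receptors and overlap for Insr.

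Promoter sequence of 7 of the 10 receptors was found in the RefSeq table (GRCm38.p6; 250 bases before to 50 after a start site); Fgfr1, Erbb3 and Insr had no entry. Windows of 3 receptors are shown because their genes span the range of falls: Fgfr2, the largest fall among receptors with an entry, Fgfr3, and Igf1r, the smallest fall that passed. The windows are chr7:130266759-130267058 on the minus strand for Fgfr2, chr5:33721474-33721773 on the plus strand for Fgfr3, which has a further listed start, and chr7:67952007-67952306 on the plus strand for Igf1r. The Fgfr2 window lies inside the gene span used here (130162451 to 133123350) and not at its outermost start, which is at 133123350 on this strand. Which start these cells use was not tested. Capitals mark the GC box, searched as GGGCGG and its reverse complement CCGCCC.
Fgfr2: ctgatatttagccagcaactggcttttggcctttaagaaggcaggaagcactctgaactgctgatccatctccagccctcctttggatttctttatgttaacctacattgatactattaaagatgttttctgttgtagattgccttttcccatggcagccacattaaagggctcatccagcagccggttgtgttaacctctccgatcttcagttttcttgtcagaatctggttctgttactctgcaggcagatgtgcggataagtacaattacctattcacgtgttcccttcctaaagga
Fgfr3: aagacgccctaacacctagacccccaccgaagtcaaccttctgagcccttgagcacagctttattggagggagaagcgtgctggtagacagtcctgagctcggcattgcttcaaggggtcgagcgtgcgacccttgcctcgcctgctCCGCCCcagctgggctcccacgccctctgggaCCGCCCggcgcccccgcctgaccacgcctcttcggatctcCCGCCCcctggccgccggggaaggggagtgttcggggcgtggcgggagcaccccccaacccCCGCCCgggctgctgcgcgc
Igf1r: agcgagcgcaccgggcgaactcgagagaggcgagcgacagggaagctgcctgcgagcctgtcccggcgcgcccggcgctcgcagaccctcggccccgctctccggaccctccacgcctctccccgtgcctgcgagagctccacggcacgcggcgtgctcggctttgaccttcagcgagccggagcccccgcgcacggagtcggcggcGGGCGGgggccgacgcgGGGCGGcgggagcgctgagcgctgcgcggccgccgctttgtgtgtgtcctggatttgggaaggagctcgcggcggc
The Fgfr2 window held 0 GC boxes and 4 CpG pairs, the Fgfr3 window 4 GC boxes and 26 CpG pairs, and the Igf1r window 2 GC boxes and 48 CpG pairs. Among 32851 promoter windows of this length 35.7% held a GC box, and the median was 7 CpG pairs; the other listed receptor windows held 17 to 34 CpG pairs. The SOX motif ACAAAG (reverse complement CTTTGT) was found in 18.7% of all windows and, of these 3, in the Igf1r window only, once. A match is a run of letters and not a shown binding site.

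Among the FGF receptors, Fgfr2 (chromosome 7, 130162451 to 133123350, minus strand, GRCm38) had an RPKM of 0.478 and 0.554 in AnnexinV-positive and of 9.37 and 8.84 in AnnexinV-negative replicates 1 and 2. It was the most abundant of the 10 receptors in living cells and the sixth of 10 in dying ones, where its mean was 5.67% of that in living cells. The log2 fold change was -3.90 (SE 0.21, limma adjusted p 2.49e-04). Fgfr3 (chromosome 5, 33721674 to 33737068, plus strand) had an RPKM of 1.38 and 2.03 in AnnexinV-positive and of 5.23 and 4.86 in AnnexinV-negative libraries. The AnnexinV-positive values stayed at 33.8% of the AnnexinV-negative mean, which made Fgfr3 the receptor with the highest mean there, overlapping Insr. Its log2 fold change was -1.53 (SE 0.24, limma adjusted p 0.00479). In AnnexinV-positive cells Fgfr1 (chromosome 8, 25513654 to 25575718, plus strand), which precursors, astrocytes and neurons share, was at an RPKM of 0.487 and 0.621, against 1.58 and 1.34 in AnnexinV-negative cells. Its groups did not overlap and its log2 fold change was -1.25 (SE 0.28, limma adjusted p 0.0143), but without AnnexinV-positive replicate 1 the adjusted p was 0.0766.

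The balance among the 3 FGF receptors can be read on any scale, because a ratio of genes within a library does not depend on scaling. Fgfr3 was 2.89 and 3.66 times Fgfr2 in AnnexinV-positive and 0.559 and 0.550 times Fgfr2 in AnnexinV-negative libraries. The Fgfr1 level was 1.02 and 1.12 times that of Fgfr2 in AnnexinV-positive and 0.168 and 0.151 times in AnnexinV-negative libraries. The ratio of Fgfr1 to Fgfr3 was closer between the groups, at 0.352 and 0.306 against 0.301 and 0.275, though none of the 3 ratios overlapped. For a single ratio, an exact permutation test of 2 libraries against 2 cannot give a two-sided p below 0.333, so ratios are given without a test. On either strand, Fgfr3 shares 998 exon bases with G630022F23Rik, 13.9% of its exon length, and Fgfr2 shares 3.04% with Ctbp2 and Fgfr1 1.66% with Gm16159; the library kit kept no strand, so reads there cannot be assigned.

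Within the ErbB family, Erbb3 (chromosome 10, 128567523 to 128589652, minus strand), which binds neuregulins, differed most of the 10 receptors. It had an RPKM of 5.46 and 4.97 in AnnexinV-negative replicates 1 and 2 and of 0.0689 and 0.0328 in AnnexinV-positive ones, the last corresponding to about 41 and 17 reads. The AnnexinV-positive mean was 0.975% of the AnnexinV-negative mean, and the log2 fold change on the log2(RPKM + 0.1) scale, which understates changes of low genes, was -5.15 (SE 0.29, limma adjusted p 2.49e-04). Erbb2 (chromosome 11, 98412470 to 98437716, plus strand), the partner with no ligand of its own, was the lowest receptor in both groups, at an RPKM of 0.0222 and 0.0417 in AnnexinV-positive and of 0.211 and 0.194 in AnnexinV-negative libraries. These levels rest on about 11 and 19 reads and on about 132 and 98 reads. With all genes above 0 tested, the log2 fold change of Erbb2 was -1.20 (SE 0.31, limma adjusted p 0.0629), which did not pass.

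Erbb4 (chromosome 1, 68032186 to 69108059, minus strand), a neuregulin receptor with an active kinase, had an RPKM of 0.265 and 0.161 in AnnexinV-positive and of 0.804 and 0.873 in AnnexinV-negative libraries. Both AnnexinV-positive values were below the AnnexinV-negative ones, and with all genes above 0 tested the log2 fold change was -1.60 (SE 0.31, limma adjusted p 0.0333). Erbb4 was 0.147 and 0.175 times Erbb3 in AnnexinV-negative and 3.85 and 4.92 times Erbb3 in AnnexinV-positive libraries, so that the leading neuregulin receptor by level was Erbb3 in living and Erbb4 in dying cells. Erbb3 was also 25.9 and 25.7 times Erbb2 in AnnexinV-negative, and 3.11 and 0.787 times Erbb2 in AnnexinV-positive libraries, the latter from few reads. Erbb3 and Erbb4 share no exon bases with another gene, and Erbb2 shares 9 with Mien1.

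Among the tested receptors, Insr and Igf1r had the smallest log2 fold changes. Insr (chromosome 8, 3122061 to 3279617, minus strand) had an RPKM of 1.52 and 1.70 in AnnexinV-positive and of 1.34 and 1.55 in AnnexinV-negative libraries, with overlapping groups, and its log2 fold change was 0.15 (SE 0.23, limma adjusted p 0.626). The sign of this value depended on the scale. It was -0.62 (limma adjusted p 0.125) on the TPM scale, -0.17 (limma adjusted p 0.649) with libraries centred on the median gene, and -1.06 (limma adjusted p 0.0130) when they were centred on the microglia markers, where 54.7% of genes were lower. Igf1r (chromosome 7, 67952827 to 68233668, plus strand) had an RPKM of 0.792 and 1.09 in AnnexinV-positive and of 1.59 and 1.86 in AnnexinV-negative libraries. Its groups did not overlap and its log2 fold change was -0.82 (SE 0.27, limma adjusted p 0.0455), just past the threshold; the adjusted p was 0.0653 with a replicate block and 0.0511 to 0.243 without any 1 of the 4 libraries. The Igf1r level was above that of Insr in living cells and below it in dying ones: Insr was 0.841 and 0.835 times Igf1r in AnnexinV-negative and 1.92 and 1.56 times in AnnexinV-positive libraries.

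Ntrk2 (chromosome 13, 58806569 to 59133970, plus strand), which in astrocytes is known mostly as a form without the kinase domain, had an RPKM of 0.813 and 0.749 in AnnexinV-positive and of 2.40 and 1.74 in AnnexinV-negative libraries. Its groups did not overlap, and the log2 fold change was -1.29 (SE 0.26, limma adjusted p 0.0108). The deposited value sums over transcripts and cannot tell the full-length from the truncated form. In AnnexinV-positive cells Met (chromosome 6, 17463800 to 17573980, plus strand) was at an RPKM of 0.298 and 0.322, against 0.527 and 0.596 in AnnexinV-negative cells. The Met groups were apart, but with all genes above 0 tested its log2 fold change was -0.69 (SE 0.28, limma adjusted p 0.177) and did not pass.

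**Figure D3:**
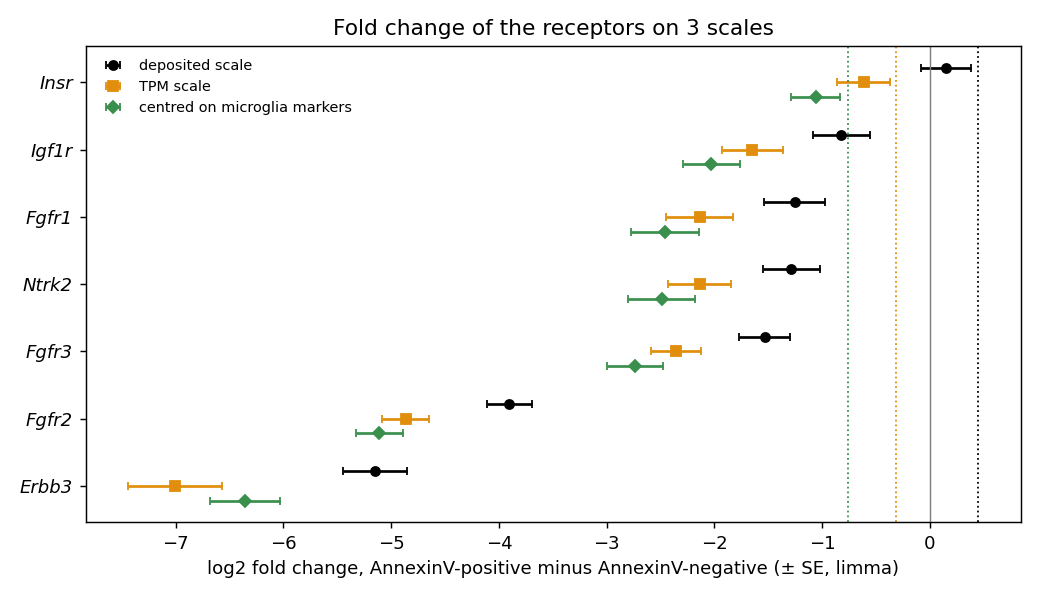
Points give the log2 fold change of each tested receptor (x axis, AnnexinV-positive minus AnnexinV-negative; bars, SE from limma) on the deposited, the TPM and the microglia-centred scale, and dotted lines the median of all 10927 genes tested on each (0.45, -0.32 and -0.76). All tested receptors lie left of the median on all 3 scales, with Erbb3 and Fgfr2 farthest left. They also lie left of 0, except Insr on the deposited scale.

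The other scales moved all tested receptors in the same direction, though not by the same amount. Over the genes tested, log2 fold changes had a median of 0.45 as deposited, -0.32 on the TPM scale and -0.76 with libraries centred on the microglia markers. The 6 receptors called lower on the deposited scale were also lower on those scales and with libraries centred on the median gene, where 10.8% of genes were lower. On the TPM scale, where 19.1% of genes were lower and 1.03% higher, their log2 fold changes ran from -1.65 for Igf1r to -7.01 for Erbb3. The same 0.1 was added to TPM values, which are larger, so it weighed less there. For Erbb3 in AnnexinV-positive libraries these were 0.344 and 0.151, against an RPKM of 0.0689 and 0.0328, so its move was not scaling alone.

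The order of levels within a group showed which receptors could be told apart. In AnnexinV-negative cells Fgfr2 (9.10 ± 0.371 RPKM, SD, n = 2) led, above Erbb3 (5.22 ± 0.347) and Fgfr3 (5.05 ± 0.264), which overlapped each other. Ntrk2 (2.07 ± 0.466) overlapped Igf1r (1.73 ± 0.186), and Fgfr1 (1.46 ± 0.168) overlapped Insr (1.45 ± 0.148). In AnnexinV-positive cells Fgfr3 (1.71 ± 0.456) and Insr (1.61 ± 0.124) led and overlapped. Igf1r (0.939 ± 0.208) and Ntrk2 (0.781 ± 0.0452) followed, then Fgfr1 (0.554 ± 0.0953) with Fgfr2 (0.516 ± 0.0536), each pair overlapping. Erbb3 (0.0509 ± 0.0255), the second in living cells, was the ninth here and overlapped Erbb2 (0.0320 ± 0.0138).

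Each of 6 receptors was then set against markers of a cell type known to express it, as the difference within a library between its log2(RPKM + 0.1) and the mean of the marker list, with no test. Erbb3 overlapped between the groups relative to the 15 mature oligodendrocyte markers: it lay at -2.04 and -2.06 in AnnexinV-positive and at -2.18 and -1.31 in AnnexinV-negative libraries. Its AnnexinV-positive values (0.0689 and 0.0328 RPKM) were below the 0.1 added, which limits how far Erbb3 can fall on this measure. With 0.01 added, its log2 fold change was -6.49 in place of -5.15. The overlap therefore cannot show that Erbb3 fell only as much as the markers. Fgfr2 lay higher relative to the same markers in AnnexinV-positive (-0.26 and 0.24) than in AnnexinV-negative libraries (-1.41 and -0.49), since the markers fell by 4.85 on average and Fgfr2 by 3.90 on the log2 scale. Relative to 11 astrocyte markers, Fgfr3 was at -1.05 in both AnnexinV-positive libraries and at -0.74 and -0.46 in the AnnexinV-negative ones. Ntrk2 overlapped between groups on this measure, at -1.75 and -2.38 against -1.83 and -1.89. Relative to the 14 microglia markers Insr was lower in AnnexinV-positive (-7.27 and -7.12) than in AnnexinV-negative libraries (-6.12 and -6.15). For Igf1r the gap was wider, at -8.13 and -7.72 against -5.88 and -5.91.

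**Figure D4:**
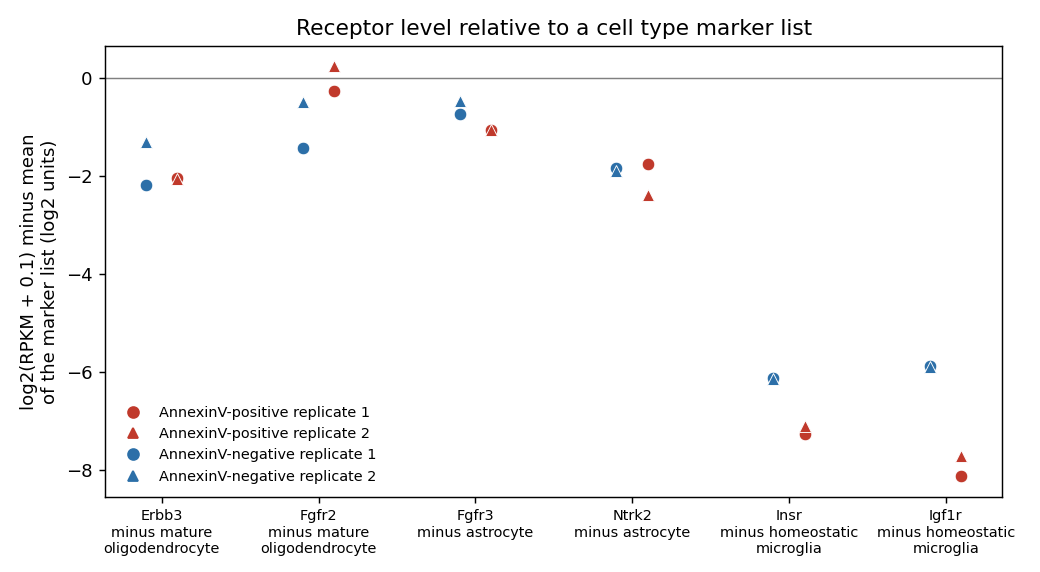
Points give, for each library, log2(RPKM + 0.1) of a receptor minus the mean over a cell type marker list (y axis, log2 units; x axis, receptor and list). Erbb3 and Ntrk2 overlap between the groups, whereas Insr and Igf1r lie lower in both AnnexinV-positive libraries. The RPKM of Erbb3 in AnnexinV-positive libraries is below the 0.1 added, which limits its fall here.

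The tested genes nearest to each receptor were found by the Euclidean distance between log2 values centred on their mean over the 4 libraries, which describes likeness in these libraries only. Ndrg1 (distance 0.0890) and Syt4 (0.336) were nearest to Erbb3, and Kcna1 (0.139) and Efna1 (0.184) to Fgfr2. For Fgfr3 they were Depp1 (0.0817) and Ddit4 (0.0857), for Fgfr1 Fads2 (0.0391) and Pycr1 (0.0812), and for Ntrk2 Mxra7 (0.0535) and Slc48a1 (0.0822). Insr was nearest to Gstm4 (0.0479) and Hbs1l (0.0549), and Igf1r to Med18 (0.143) and Lpcat4 (0.175). Ndrg1 fell from an RPKM of 29.3 and 25.9 to 0.722 and 0.588. With 0.1 added, its log2 fold change (-5.20) was close to that of Erbb3 (-5.15). The AnnexinV-positive RPKM of Erbb3 (0.0689 and 0.0328) was below the 0.1 added. With 0.01 added, the log2 fold change of Erbb3 was -6.49. The likeness therefore holds on this measure and does not show that RPKM fell by the same factor. Kcna1, nearest to Fgfr2, was also below the 0.1 added in both AnnexinV-positive libraries.

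Ligands of the receptors were mostly low, and those measured did not share a direction on the deposited scale. Of 15 FGF-family genes 2 reached the RPKM minimum. Fgf1, which binds all FGF receptors, was lower (0.833 and 1.04 against 2.95 and 1.66 RPKM; log2 fold change -1.17, SE 0.32, limma adjusted p 0.0276). Fgf13, a member of the family that stays inside the cell, was higher (6.15 and 5.24 against 2.21 and 2.92 RPKM; log2 fold change 1.13, limma adjusted p 0.00918) and did not pass on the TPM or the microglia-centred scale. Of 11 neuregulin and EGF-family ligands 3 were tested and 1 changed: Btc, which activates Erbb4 and the EGF receptor, fell from an RPKM of 1.99 and 1.28 to 0.0105 and 0.0364 (log2 fold change -3.79, limma adjusted p 0.00157). Btc reached the RPKM minimum only through the AnnexinV-negative libraries, which built a difference into its selection. Hbegf (0.50, limma adjusted p 0.0970) and Tgfa (-0.10, limma adjusted p 0.745) did not pass. The neuregulins themselves stayed at an RPKM of at most 0.277 (Nrg1, AnnexinV-negative replicate 1) and were not tested.

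Igf1 was the tested member among the 8 insulin-like, neurotrophin and HGF ligands. Its RPKM was 11.4 and 13.8 in AnnexinV-positive and 4.75 and 6.54 in AnnexinV-negative libraries (log2 fold change 1.15, SE 0.22, limma adjusted p 0.00901), and the gene did not pass on the TPM or the microglia-centred scale. Igf1 stood at 14.3 and 12.7 times its receptor Igf1r in AnnexinV-positive libraries and at 2.98 and 3.52 times in AnnexinV-negative ones. Among IGF-binding proteins, which hold IGF outside cells, 2 of 5 tested fell, where 9.26% of all genes tested were lower. Igfbp3 went from an RPKM of 13.9 and 8.42 to 0.465 and 0.141 (log2 fold change -4.89, limma adjusted p 8.33e-04) and Igfbp7 from 20.2 and 14.4 to 4.01 and 2.02 (-2.54, limma adjusted p 0.00304). Igfbp3, unlike Igfbp7, reached the RPKM minimum only through the AnnexinV-negative libraries, which built a difference into its selection. The endothelial markers above moved with them, as did Pdgfrb, Kcnj8, Rgs5 and Vtn of the mural and fibroblast list (4 of 6 tested lower). Summed RPKM of the 12 listed was 7.56 to 16.8 against 60.0 to 74.2. The part of these markers was not tested. Acta2 and Myh11 did not pass, and the untested Dcn, Lum and Col1a1 overlapped between the groups. The untested Tagln, Abcc9 and Col1a2 were lower in both AnnexinV-positive libraries. Of the 4 markers called lower, 3 reached the RPKM minimum only through the AnnexinV-negative libraries. Igfbp4 was at 0.64 (limma adjusted p 0.109). Igfbp2, chosen after its values were seen, followed replicate number like the choroid plexus markers, at 11.4 and 8.75 in the replicates numbered 1 and 2.98 and 1.54 in those numbered 2.

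Of 15 tested adaptors that link receptors to their pathways, 3 were higher and 1 lower, with a median log2 fold change of 0.19; over all genes 30.8% were higher and 9.26% lower, with a median of 0.45. Gab1, a docking protein downstream of Met and the EGF-family receptors, fell from an RPKM of 15.9 and 15.5 to 4.75 and 3.33 (log2 fold change -1.96, SE 0.22, limma adjusted p 0.00182). Grb2 (1.01), Shc1 (1.11) and, named after its values were seen, Pik3cb (0.996) were higher on the deposited scale, and 0 of the 15 were higher on the TPM scale in limma, also at an unadjusted p under 0.05. Frs2, the docking protein of FGF receptors, was at -0.13 (limma adjusted p 0.733), chosen after its values were seen.

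Inhibitors that feed back on receptor signalling held genes of both directions. Of 18 tested, 5 were lower and 5 higher on the deposited scale, with a median of -0.03, where all genes gave 9.26% lower and 30.8% higher. On the TPM scale 9 were lower and 0 higher in limma (1 higher at an unadjusted p under 0.05), where all genes gave 19.1% and 1.03%. Of the 5 lower inhibitors, 4 reached the RPKM minimum only through the AnnexinV-negative libraries, which built a difference into their selection. Grb14, which binds and inhibits the insulin receptor, fell from an RPKM of 19.2 and 8.40 to 0.351 and 0.181 (log2 fold change -5.17, SE 0.42, limma adjusted p 6.10e-04). Spry4, an inhibitor induced by FGF signalling, fell from 1.93 and 2.34 to 0.181 and 0.286 (-2.76, limma adjusted p 0.00188), and Spry2, Lrig1 and Fgfrl1, named after their values were seen, fell by 2.60, 2.32 and 0.84 on the log2 scale. Dusp5, a phosphatase of ERK, was higher at 40.3 and 37.2 against 14.8 and 14.6 RPKM (1.39, limma adjusted p 0.00233). Ptpn1 (1.14), Sh2b3 (1.13), Errfi1 (1.07) and Dusp6 (0.78), also named after their values were seen, were higher. Among 8 tested transcription factors and other genes that ERK induces, Ier3 (1.10) and Egr1 (1.03) were higher on the deposited scale, where all genes gave 30.8%. Neither passed on the TPM scale. Etv1 was lower (-1.09, limma adjusted p 0.0439) and reached the RPKM minimum only through the AnnexinV-negative libraries. For comparison, the 14 homeostatic microglia markers had a median log2 fold change of 1.24 on the deposited scale (0.46 on the TPM scale); on the deposited scale Dusp5 lay above it and the other higher pathway genes named here below it, and the part of the microglia RNA was not tested.

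**Figure D5:**
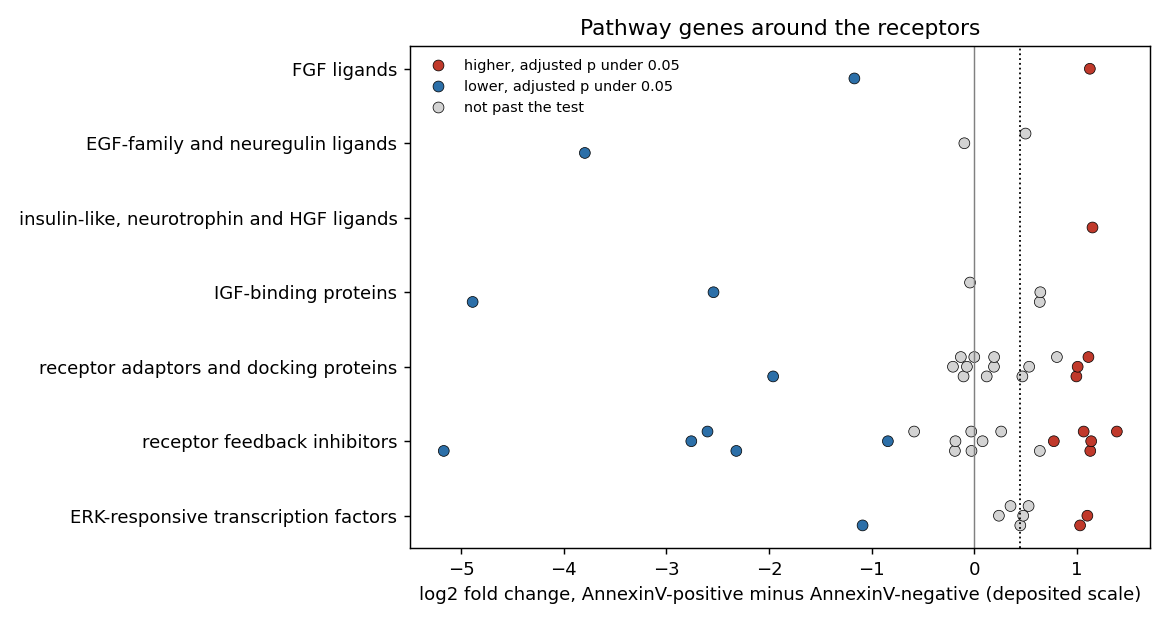
Each point is a tested gene of the 7 lists of ligands, binding proteins, adaptors, inhibitors and ERK-induced genes (y axis) at its log2 fold change (x axis, AnnexinV-positive minus AnnexinV-negative, deposited scale), coloured by the limma call; the dotted line is the median of all genes tested (0.45). In these lists lower genes reach -5.17 (Grb14) and higher ones 1.39 (Dusp5).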

How the data were processed

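Bulk RNA-seq libraries (TruSeq RNA v2 kit, per the labels' protocols) were aligned with GSNAP to mm10, per the submitters' processing notes; the counter, annotation, gene lengths and versions were not found in the labels or file headers. Each of the 4 deposited tables held 1 value per Ensembl gene with no unit named; the deposited values were read as RPKM scaled by size factors, because low values (under 100 reads) rose in steps that shrank with exon length: 79.7% to 83.7% of them per library were whole numbers of steps, to 0.01 of a step. Read numbers were recovered from these steps. Symbols matched 52403 of 52636 genes, and coordinates and exon lengths came from GENCODE vM21 (GRCm38, the assembly of mm10).

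Genes that reached an RPKM of 1 in 2 or more libraries (10927) were fitted as log2(RPKM + 0.1), with an intensity trend and no covariate (limma 3.58.1, R 4.3.3); Benjamini-Hochberg adjustment ran over all of them, with a threshold of 0.05. The steps were tested on simulated data. The members, the gene lists and the tests were chosen with earlier results of these data known. Named genes were the 10 receptors, ligands at the RPKM minimum, the 3 members with the smallest p in each other pathway list, and the 2 genes nearest to each tested receptor. Other names are marked, except Nrg1, Egfr and single cell type markers, which were named with their values known. Alternatives were other pseudocounts, no filter, 3 other scales, no trend, a replicate block and leaving out each library. The replicate numbers are shared by the groups, but nothing in the labels says that they pair libraries.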

Additional observations from a re-analysis of the deposited data

How the results depend on the processing

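The count of receptors called lower was within 1.5 times its value of 6 under every alternative run, and 0 receptors were called higher under any of them. Of 91 values of single receptors under an alternative, 81 kept their direction and their side of the threshold, 7 kept the direction but lost the call (6 of Igf1r, 1 of Fgfr1) and 3 turned, all of Insr: to -0.62 on the TPM scale, -0.17 centred on the median gene and -1.06 centred on the microglia markers. The counts over all genes moved more. The 1012 lower genes became 2489 with no filter, 2091 on the TPM scale and 5973 centred on the microglia markers. The 3364 higher genes became 1865, 113 and 13 in the same order, and 1133 centred on the median gene; leaving out 1 library gave 1297 to 3356 higher and 787 to 1060 lower genes, with the genes tested held and the lone library assumed to vary like the other group. Without AnnexinV-positive replicate 1 or 2 the higher genes were 1749 and 1297. The cause of these moves was not tested. With a replicate block 2443 genes were higher and 957 lower, and of the receptor calls only that of Igf1r was lost (-0.82, limma adjusted p 0.0653). Deviations of same-numbered libraries had a correlation of -0.22 across genes, and a crossed pairing, added after seeing the data, called 6027 genes against 4376. Depth limits Erbb2 and Erbb3, which rest on about 11 to 41 reads in AnnexinV-positive libraries.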

Other observations

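Of the other 48 receptor tyrosine kinases listed, 14 reached the RPKM minimum, and 6 were lower and 4 higher in AnnexinV-positive cells, with a median log2 fold change of -0.47 against 0.45 over all genes tested. Among all genes tested 9.26% were lower and 30.8% higher. Of the 6 lower ones, 5 reached the minimum only through the AnnexinV-negative libraries, so their difference was built into the selection. On the TPM scale 8 were lower and 0 higher in limma (2 higher at an unadjusted p under 0.05), where all genes gave 19.1% and 1.03%. The collagen receptor Ddr1 fell from an RPKM of 11.4 and 8.91 to 0.919 and 0.678 (log2 fold change -3.52, SE 0.24, limma adjusted p 3.29e-04). Aatk fell from 9.17 and 9.28 to 1.43 and 1.12 (-2.77, limma adjusted p 5.07e-04), and Tyro3, a receptor of the Mertk family, from 5.66 and 4.73 to 0.234 and 0.0553 (-4.53, limma adjusted p 7.67e-04). Named after their values were seen, Ephb1 (-3.14), Pdgfrb (-3.12) and Tek (-2.14) were the other lower genes, Pdgfrb being known from pericytes and Tek from endothelial cells. The 4 higher genes, also named after their values were seen, were Axl (1.49), Epha2 (1.44), Mertk (1.28) and Csf1r (1.28). The Mertk reads come from libraries labelled as its knockout, and which part of the gene they cover was not tested. Csf1r, the survival receptor of microglia, stood at an RPKM of 668 and 527 against 213 and 282, far above each of the 10 growth factor receptors, and is itself one of the microglia markers used here. The EGF receptor Egfr, the fourth ErbB gene, stayed under the minimum, at an RPKM of 0.261 and 0.193 in AnnexinV-positive and of 0.467 and 0.543 in AnnexinV-negative libraries.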
